A study of Mus musculus with 4 samples.

Results

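Major histocompatibility complex (MHC) class II molecules carry peptides from the endosomal route to the cell surface, where CD4 T cells read them. The 9 genes described here encode the parts of this route: H2-Aa and H2-Ab1 are the alpha and beta chains of I-A, H2-Eb1 is the beta chain of I-E, Cd74 is the invariant chain that escorts new class II dimers, H2-DMa, H2-DMb1 and H2-DMb2 form the H2-DM exchange factor that removes the last piece of Cd74 from the groove, H2-Oa is a chain of H2-DO, which restrains H2-DM, and Ciita is the transactivator of the other members. Dendritic cells, B cells and macrophages are the classical class II cells, interferon gamma (IFN-γ) induces Ciita in many other cells, and fibroblasts that carry class II are known in pancreatic tumors as antigen-presenting cancer-associated fibroblasts (CAFs). The members were taken by gene symbol from the 32285 genes that the files list, and all 9 were found once.

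The study asked how depletion of different CAFs alters a pancreatic tumor. KPC cells, a mouse pancreatic tumor line of the FC1242 strain, were grafted orthotopically into male C57BL/6 mice made obese by diet, labelled as 7 months old, and there were 4 single-cell RNA sequencing libraries, 1 per condition. Pdgfrb-TK/GCV came from Pdgfrb-TK mice given ganciclovir, and Pdgfrb-TK/PBS from Pdgfrb-TK mice given PBS. In Pdgfrb-TK mice the Pdgfrb promoter drives a viral thymidine kinase, so that ganciclovir kills dividing cells that use this promoter, pericytes included. D-CAN came from C57BL/6 mice without the transgene that received D-CAN, a peptide that homes to and kills adipose-stromal-like CAFs, and WT/PBS from such mice given PBS. Per the paper, the peptide reaches pericytes too, and further stromal cells with PDGFRβ and nonglycanated decorin. The tumors of a condition were combined into 1 suspension ahead of capture. There is thus no replicate check on any difference, no test was possible, and single cells did not stand in for replicates. The reference for Pdgfrb-TK/GCV was Pdgfrb-TK/PBS, and that for D-CAN was WT/PBS.

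The libraries held 10178 to 12280 cells with at least 200 genes and 84000174 to 155382616 unique molecular identifiers (UMIs, each a counted transcript). D-CAN stood apart by 29.3% of cells with over 20% mitochondrial UMIs, against 4.48% to 18.2% in the others. Any pair of libraries shared 26 to 42 cell barcodes, at most 0.389% of a library. Cells were assigned to classes by 3 or more markers of a fixed list that holds no class II gene, and 1457 to 3542 cells per library stayed ungated. Lyz2 and Sparc, genes outside the gate chosen after their values were seen, set macrophage-marker and fibroblast-marker cells apart from KPC tumor cells. Levels are in CPM (UMIs scaled to the same total in every class and library). Lyz2, the lysozyme of myeloid cells, was at 2104 to 4986 CPM in macrophage-marker cells and at 4.79 to 45.1 CPM in KPC tumor cells. Sparc, a matrix protein of stromal cells, was at 7017 to 8836 CPM in fibroblast-marker cells and at 46.8 to 90.9 CPM in KPC tumor cells. Vim, a mesenchymal gene, went the other way in each library, at 1352 to 2177 CPM in fibroblast-marker cells and 1739 to 2518 CPM in KPC tumor cells. All levels below are UMIs summed over a class and divided by its total UMIs. The reads come from transcript ends, so levels were not divided by gene length. Intervals in parentheses are 95% intervals, Poisson for a level, conditional binomial for a ratio and Clopper-Pearson for a share, and cover counting error only.

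In mm10, 7 of the 9 genes lie in the MHC region of chromosome 17, in the order H2-Oa (34092340 to 34095234), H2-DMa (34119541 to 34139101), H2-DMb2 (34143307 to 34151555), H2-DMb1 (34153072 to 34160230), H2-Ab1 (34257689 to 34269419), H2-Aa (34282744 to 34287823, minus strand) and H2-Eb1 (34305867 to 34316674). Ciita lies on chromosome 16 (10480059 to 10528418). The annotated H2-DMa gene spans 19.6 kb and overlaps Brd2 on the opposite strand, and Ciita overlaps Dexi on the opposite strand. H2-DMb1 and H2-DMb2 are close copies of each other, so the split of UMIs between them is uncertain.

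Class II promoters carry a conserved module in which RFX proteins bind the X box and NF-Y binds the CCAAT letters of the Y box, and CIITA docks on the proteins bound there. The promoter set of RefSeq (GRCm38.p6) held 6 of the 9 members. The stretches from 130 to 21 bases before the start of 5 of them are printed to show which letters of the module each holds, with positions counted from the RefSeq start. Capitals mark CCAAT, or ATTGG as its reverse, and AGCAAC and AGTAAC, core letters of the RFX site, searched on both strands.
H2-Aa (chr17:34287844-34287953, minus strand): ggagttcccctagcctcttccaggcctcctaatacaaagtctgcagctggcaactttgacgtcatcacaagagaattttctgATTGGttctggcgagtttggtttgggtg
H2-Eb1 (chr17:34305737-34305846, plus strand): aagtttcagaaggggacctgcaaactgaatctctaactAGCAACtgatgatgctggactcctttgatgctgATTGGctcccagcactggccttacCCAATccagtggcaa
H2-DMb1 (chr17:34153061-34153170, plus strand): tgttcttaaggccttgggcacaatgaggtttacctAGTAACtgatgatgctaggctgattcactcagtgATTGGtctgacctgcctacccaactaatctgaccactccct
H2-DMb2 (chr17:34145119-34145228, plus strand): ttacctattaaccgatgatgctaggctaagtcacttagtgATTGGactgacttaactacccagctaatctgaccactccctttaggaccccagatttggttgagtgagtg
H2-Oa (chr17:34092249-34092358, plus strand): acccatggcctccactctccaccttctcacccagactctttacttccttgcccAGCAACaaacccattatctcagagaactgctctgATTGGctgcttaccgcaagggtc

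ATTGG was found in all 5 stretches. H2-Eb1, H2-DMb1 and H2-Oa also held AGCAAC or AGTAAC upstream of it, from 92 to 87, 95 to 90 and 77 to 72 bases before the start. Only these exact letters were searched. The stretch of H2-Aa holds GGCAAC and that of H2-DMb2 ATTAAC, each 1 letter off, and such near matches were not counted. Among all 32851 promoters of the same 250 bases, 0.359% hold AGCAAC or AGTAAC followed by ATTGG within 40 bases on the gene's strand. CCAAT on either strand occurs in 33.8%, and AGCAAC or AGTAAC on either strand in 18.2%. Of the 2 promoters listed for H2-DMa, 1 held ATTGG, 198 to 194 bases before its start, and neither held AGCAAC or AGTAAC. These matches are letters and were not measured as bound sites.

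The class II genes were highest in dendritic-marker cells, macrophage-marker cells and B cells. Summed over the 9 genes, dendritic-marker cells stood at 17722 CPM for Pdgfrb-TK/GCV, 21111 CPM for Pdgfrb-TK/PBS, 28039 CPM for D-CAN and 13170 CPM for WT/PBS. Macrophage-marker cells stood at 4069 CPM (4037 to 4101), 7069 CPM (6956 to 7184), 18667 CPM (18565 to 18769) and 7186 CPM (7129 to 7244) in the same order. B cells ran from 5138 CPM in the 6 cells of WT/PBS to 9946 CPM in the 103 cells of D-CAN. Dendritic-marker cells were above macrophage-marker cells in each of the 4 libraries, whereas the order of macrophages and B cells differed between libraries.

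**Figure D1:**
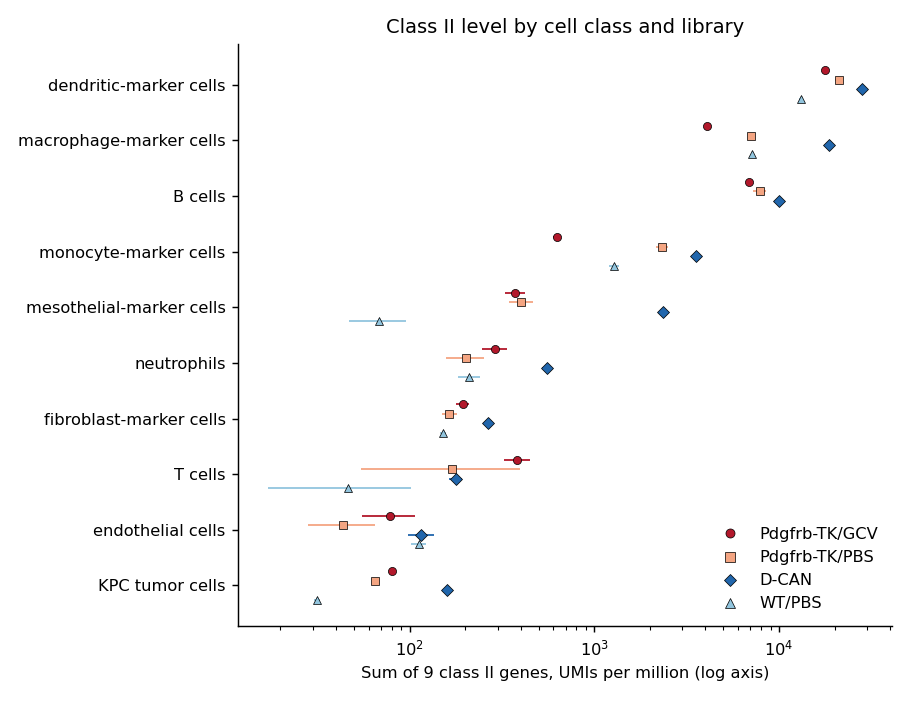
Summed level of the 9 class II genes (x axis, CPM, log axis) in 10 cell classes (y axis), with 1 point per library and bars for the 95% Poisson interval; classes with under 10 cells in a library are left out. The dendritic-marker, macrophage-marker and B cells stand right of the other classes in most libraries, and D-CAN is the rightmost point in each class except T cells.

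Below these came the monocyte-marker cells, at 626 to 3549 CPM, and then the stromal and tumor classes. Fibroblast-marker cells, the CAFs of these libraries, were at 194 CPM for Pdgfrb-TK/GCV, 164 CPM for Pdgfrb-TK/PBS, 265 CPM for D-CAN and 152 CPM for WT/PBS. Endothelial cells (ECs) were at 43.8 to 116 CPM and KPC tumor cells at 31.5 to 160 CPM. T cells, which in mice do not normally make class II, serve as a guide to RNA from other cells. They were at 383, 169, 178 and 46.7 CPM in library order, from 160, 5, 532 and 6 UMIs. Fibroblast-marker cells lay below the T cells of their own library in Pdgfrb-TK/GCV and above them in D-CAN and WT/PBS. The 5 UMIs of Pdgfrb-TK/PBS are too few to order its T cells and fibroblast-marker cells. T cells were also shallower, at medians of 1543 to 3800 UMIs against 4695 to 10593 in fibroblast-marker cells. Lyz2 was at 429 CPM in T cells and 123 CPM in fibroblast-marker cells of Pdgfrb-TK/GCV. It was at 22.4 and 35.4 CPM in D-CAN and at 15.6 and 21.2 CPM in WT/PBS. The part of depth and of free RNA in this order was not tested.

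Macrophage-marker cells held most class II UMIs: 69.0% for Pdgfrb-TK/GCV, 54.5% for Pdgfrb-TK/PBS, 67.6% for D-CAN and 77.0% for WT/PBS, with 2.51% to 12.0% of all UMIs. Dendritic-marker cells held 4.26% to 12.7% and KPC tumor cells 3.82% to 17.2%. Ungated cells held 5.16% to 14.7%, and 79.2% to 91.0% of that sat in the 2.82% to 8.24% of ungated cells with at least 3 class II UMIs that were also at least 0.1% of their UMIs. Over all cells, class II came to 706 CPM in Pdgfrb-TK/GCV against 326 CPM in Pdgfrb-TK/PBS, a ratio of 2.17 (2.14 to 2.20), and 1477 CPM in D-CAN against 506 CPM in WT/PBS, a ratio of 2.92 (2.89 to 2.94). The whole-library ratio mixes level and cell numbers: macrophage-marker cells were 15.9% of cells in Pdgfrb-TK/GCV and 4.92% in Pdgfrb-TK/PBS, but 9.65% in D-CAN and 8.63% in WT/PBS.

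Within macrophage-marker cells the 2 treatments differed from their PBS libraries in opposite directions. The 9 genes together were lower in Pdgfrb-TK/GCV than in Pdgfrb-TK/PBS, at 0.576 times its level (0.565 to 0.586), and higher in D-CAN than in WT/PBS, at 2.60 times its level (2.57 to 2.62). The PBS libraries stood at nearly the same sum, with WT/PBS at 1.02 times Pdgfrb-TK/PBS (0.998 to 1.03). The 1949 macrophages of Pdgfrb-TK/GCV were thus more numerous and poorer in class II, and the 982 of D-CAN were similar in number to the 1003 of WT/PBS and richer in class II.

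RNA of the chain genes H2-Aa, H2-Ab1 and H2-Eb1 was lower under GCV and higher in D-CAN. Whether it yields I-A or I-E at the cell surface was not measured. H2-Aa was at 666 CPM for Pdgfrb-TK/GCV, 1303 CPM for Pdgfrb-TK/PBS, 3045 CPM for D-CAN and 1302 CPM for WT/PBS, so both PBS libraries lay between the treated ones. H2-Ab1 was at 689, 1043, 3174 and 1088 CPM in the same order and H2-Eb1 at 505, 1017, 3044 and 857 CPM. H2-Eb1 was lowest relative to PBS in Pdgfrb-TK/GCV, at 0.496 times (0.473 to 0.521), and was the highest of the 3 chains relative to PBS in D-CAN, at 3.55 times (3.46 to 3.65). Cd74, the invariant chain and the most abundant member by UMIs, was at 1827, 3242, 8528 and 3624 CPM, which is 0.563 times (0.549 to 0.579) and 2.35 times (2.32 to 2.39) the level of PBS.

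The exchange factor genes differed less under GCV. H2-DMa was at 241 CPM in Pdgfrb-TK/GCV and 271 CPM in Pdgfrb-TK/PBS, 0.890 times (0.815 to 0.974), and at 451 CPM in D-CAN against 223 CPM in WT/PBS, 2.02 times (1.91 to 2.14). H2-DMb1 was at 93.3, 122, 267 and 81.2 CPM, 0.767 times (0.671 to 0.880) and 3.28 times (3.01 to 3.59). H2-DMb2 at 4.27 to 20.8 CPM and H2-Oa at 0.830 to 8.95 CPM were scarce in macrophages. In Pdgfrb-TK/GCV the intervals of both ratios, 0.601 to 1.27 and 0.273 to 1.16, included no difference. The direction under GCV depended on the PBS library for these genes. Against WT/PBS, Pdgfrb-TK/GCV was at 1.08 times (1.02 to 1.14) for H2-DMa and 1.15 times (1.05 to 1.26) for H2-DMb1. H2-DMb2 was at 3.36 times (2.35 to 4.92), H2-Oa at 3.39 times (1.51 to 8.93) and Ciita at 5.36 times (3.99 to 7.35).

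**Figure D2:**
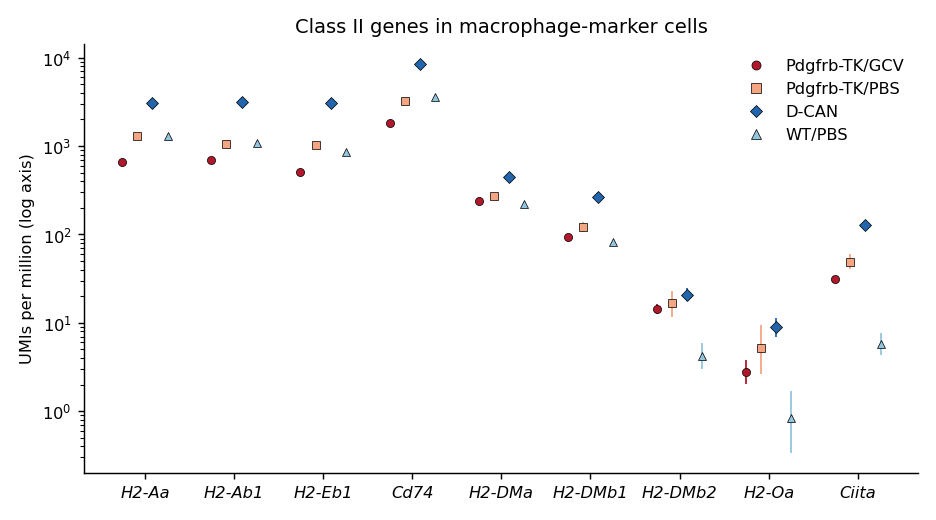
Level of each class II gene (x axis) in macrophage-marker cells (y axis, CPM, log axis), with 1 point per library and bars for the 95% Poisson interval. D-CAN is the highest point for all 9 genes, Pdgfrb-TK/GCV lies below Pdgfrb-TK/PBS, and WT/PBS drops far below the others for Ciita at 5.81 CPM.

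Of the 9 members, 7 had at least 100 UMIs in D-CAN and WT/PBS macrophages and 50 CPM in the higher library, and all 7 were at least 2-fold higher in D-CAN (H2-Aa, H2-Ab1, H2-Eb1, Cd74, H2-DMa, H2-DMb1 and Ciita). The same was true of 8.73% of the 3824 genes so filtered, and 4.60% were at least 2-fold lower. Their median log2 ratio was 1.54, beside 0.09 over all filtered genes. Ciita, at 5.81 CPM in WT/PBS, passed this filter only through D-CAN, so its call was fixed by the filter. Under GCV, 6 members passed the filter, and H2-Eb1 was the 1 at least 2-fold lower, against 1.84% of 3694 genes lower and 4.60% higher. Their median log2 ratio was -0.71, beside -0.02 over all filtered genes.

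The differences also showed in the median macrophage and in the share of cells past a limit. These values do not tell a change in each cell from a change in the mix of cells. The median macrophage-marker cell gave 0.0864% of its UMIs to class II for Pdgfrb-TK/GCV, 0.366% for Pdgfrb-TK/PBS, 1.56% for D-CAN and 0.398% for WT/PBS. Cells that gave at least 1% were 16.8% (15.1 to 18.5), 29.9% (26.0 to 34.1), 62.3% (59.2 to 65.4) and 31.8% (28.9 to 34.8) of the class, and 6.77% to 13.0% lay between 0.8% and 1.25%, near that limit. After thinning of each cell to 2000 UMIs, H2-Aa was seen in 36.2%, 60.6%, 82.6% and 58.3% of macrophages in library order, with 153, 175, 156 and 63 shallower cells left out, and Cd74 in 54.0%, 69.1%, 93.2% and 75.1%. Without thinning, H2-Aa was seen in 47.6%, 58.8%, 86.5% and 68.3% at median depths of 6516, 2910, 5237.5 and 7203 UMIs, against 4.33% to 17.0% of KPC tumor cells at 7418 to 24615 UMIs.

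**Figure D3:**
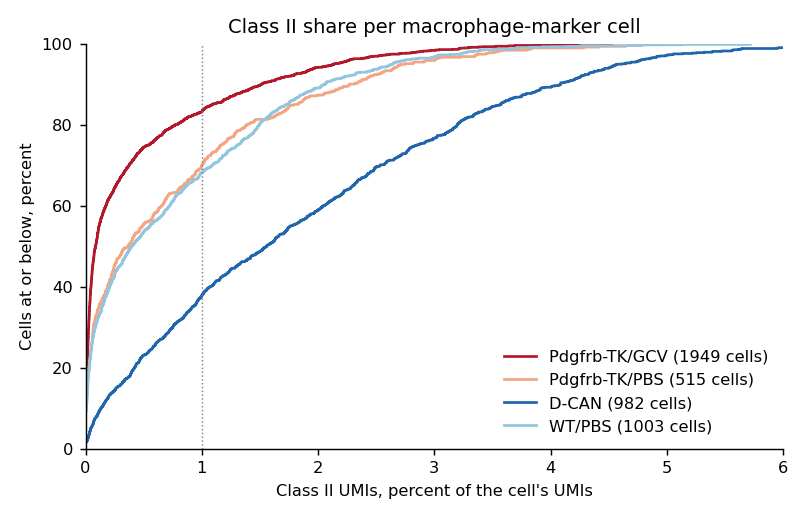
Cumulative share of macrophage-marker cells (y axis, percent) by the percent of a cell's UMIs that are class II (x axis), with 1 line per library and a dotted line at 1%. The D-CAN line runs right of the others over its whole length, with a median of 1.56%, and the Pdgfrb-TK/GCV line runs left, with a median of 0.0864%.

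Macrophage states differed between libraries as well, in splits that were chosen after the data were seen. Arg1, an arginase of tumor macrophages, was above 0.5 times its share over all cells in 79.8% of macrophage-marker cells of Pdgfrb-TK/GCV, 53.0% of Pdgfrb-TK/PBS, 40.5% of D-CAN and 50.2% of WT/PBS. Cells were not thinned for these splits, and their median depths were 6516, 2910, 5237.5 and 7203 UMIs in library order. The part of depth in the splits was not tested. Among cells with Arg1, class II was 0.555 times as high in Pdgfrb-TK/GCV as in Pdgfrb-TK/PBS, and among cells without it 0.842 times. The D-CAN ratio was 2.56 with Arg1 and 2.55 without it. Split by the complement genes C1qa, C1qb and C1qc, the GCV ratio was 0.624 in cells with all 3 above the same limit and 0.366 in the rest, and the D-CAN ratio was 2.51 and 3.42. What the makeup of the macrophages contributes to the ratio was not tested beyond these splits. Monocyte-marker cells were at 0.269 times (0.247 to 0.293) and 2.77 times (2.58 to 2.97) the level of PBS. Their myeloid markers differed the same way: Tyrobp was at 402 CPM in Pdgfrb-TK/GCV against 1204 CPM in Pdgfrb-TK/PBS and at 2161 CPM in D-CAN against 898 CPM in WT/PBS, and the epithelial gene Krt8 was at 748 against 550 CPM in the former pair. The part of this in the monocyte ratios was not tested. In WT/PBS, 71 of 1003 macrophage-marker cells also carried markers of another class, in Pdgfrb-TK/PBS 103 of 515.

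Ciita, which controls the others, was at 31.1 CPM (28.4 to 34.1) in macrophages of Pdgfrb-TK/GCV, 49.4 CPM (40.3 to 59.8) in Pdgfrb-TK/PBS, 128 CPM (120 to 137) in D-CAN against 5.81 CPM (4.30 to 7.68) in WT/PBS. The ratio of D-CAN to WT/PBS was 22.1 (16.6 to 30.1), but the ratio of D-CAN to Pdgfrb-TK/PBS was 2.60 (2.12 to 3.21), close to that of Cd74 against the same library, 2.63 (2.57 to 2.70). WT/PBS was also low in other classes. Dendritic-marker cells had 305 CPM for Pdgfrb-TK/GCV, 327 CPM for Pdgfrb-TK/PBS and 313 CPM for D-CAN, but 10.6 CPM for WT/PBS, from 4 UMIs. Over all cells there were 18.6, 22.6, 21.2 and 1.81 Ciita UMIs per 1000 Cd74 UMIs in library order, and in ungated cells 27.1, 46.2, 60.6 and 1.90. In KPC tumor cells of WT/PBS, 8 Ciita UMIs gave 6.39 (2.76 to 12.6), an interval that overlaps that of Pdgfrb-TK/GCV. It lies below those of Pdgfrb-TK/PBS, at 22.6 (16.0 to 30.9), and D-CAN, at 39.6 (35.2 to 44.4). In fibroblast-marker cells of WT/PBS, 4 Ciita UMIs gave 2.51 (0.684 to 6.43). This interval overlaps those of both TK libraries and lies below that of D-CAN, at 22.5 (15.6 to 31.4). H2-Oa and H2-DMb2 were lowest in WT/PBS macrophages too. Genes over 50 kb took 20.1% of macrophage UMIs in WT/PBS and 19.1% to 23.2% in the other libraries. What sets Ciita low in WT/PBS was not tested.

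In dendritic-marker cells, class II was 0.839 times as high in Pdgfrb-TK/GCV as in Pdgfrb-TK/PBS (0.792 to 0.890) and 2.13 times as high in D-CAN as in WT/PBS (2.06 to 2.20). These rest on 37, 30, 111 and 29 cells. H2-DMb1 was at 385 CPM in D-CAN against 52.9 CPM in WT/PBS, 7.27 times (4.63 to 12.1). Against Pdgfrb-TK/PBS, H2-DMb1 in D-CAN was 1.80 times as high (1.11 to 3.13). Cells with markers of a second class were 12 of 111 in D-CAN and 9 of 29 in WT/PBS, and Ptprc, the pan-leukocyte gene, was at 526 against 220 CPM and Krt8 at 334 against 786 CPM, whose part in the ratios was not tested. With 1 more marker required of a cell, the D-CAN ratio was 1.21, without cells of a second class 1.35, and against Pdgfrb-TK/PBS 1.33. H2-Oa, the restraining chain, was at 23.8 to 147 CPM in dendritic-marker cells and 63.6 to 95.3 CPM in the B cells of the 3 libraries with 55 or more of them, against at most 8.95 CPM in macrophages. H2-DMb2 was likewise at 26.5 to 152 CPM and 81.7 to 121 CPM in these classes. B cells of D-CAN were at 1.94 times the level of the 6 in WT/PBS (1.52 to 2.50), and those of Pdgfrb-TK/GCV at 0.875 times the level of the 55 in Pdgfrb-TK/PBS (0.803 to 0.955). The GCV side did not hold in these classes under other choices: against WT/PBS the ratio was 1.35 (1.29 to 1.40) in dendritic-marker cells and 1.34 (1.05 to 1.73) in B cells, and without cells of a second class it was 1.07 (0.963 to 1.20) in B cells.

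KPC tumor cells carried a little class II RNA in each library, unevenly between cells, and in D-CAN its makeup differed. The 1% of KPC tumor cells with the most class II UMIs held 35.1%, 52.0%, 27.0% and 52.9% of them in library order. For Cd74 alone, the top 1% of cells held 67.9% in WT/PBS and 30.0% in D-CAN. The myeloid genes Ctss, Lyz2 and Tyrobp were uneven in KPC tumor cells too. The top 1% of cells for each held 46.8%, 51.7% and 63.2% of its UMIs in WT/PBS and 34.6%, 27.8% and 42.7% in D-CAN. Doublets were kept, and their part in these levels was not tested. The levels below are sums over all cells of the class. Cd74 was at 33.4 CPM for Pdgfrb-TK/GCV, 23.9 CPM for Pdgfrb-TK/PBS, 89.4 CPM for D-CAN and 13.1 CPM for WT/PBS. H2-DMb1 was at 2.96, 1.44, 18.4 and 0.554 CPM, and Ciita at 0.450, 0.540, 3.54 and 0.0837 CPM. H2-Aa, by contrast, was at 12.4, 10.3, 12.0 and 4.67 CPM, so that D-CAN lay between the TK libraries. H2-Ab1 was at 12.4, 9.26, 15.1 and 4.36 CPM and H2-Eb1 at 9.92, 9.05, 12.5 and 3.07 CPM, so that D-CAN was the high library for these chains too, by less than for Cd74.

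Against WT/PBS, the ratios in KPC tumor cells were 6.83 (6.43 to 7.25) for Cd74, 33.1 (25.2 to 44.5) for H2-DMb1 and 42.3 (21.2 to 98.9) for Ciita, the last from 8 UMIs in WT/PBS. They were 2.58 (2.30 to 2.89) for H2-Aa and 1.58 (1.41 to 1.77) for H2-DMa. Against Pdgfrb-TK/PBS, Ciita in D-CAN was 6.56 times as high (4.69 to 9.42) and Cd74 3.74 times (3.55 to 3.94). H2-DMb1 was at 12.8 times, H2-Ab1 at 1.63 times, H2-Eb1 at 1.39 times and H2-Aa at 1.17 times. H2-DMa was lower in D-CAN than in Pdgfrb-TK/PBS, at 0.855 times (0.7705 to 0.9496), so its direction depended on the PBS library. H2-DMb2 at 0.398 times and H2-Oa at 0.472 times were lower too, from 9 and 8 UMIs in D-CAN. The interval of H2-Oa included no difference. Cd74 alone passed the filter of 100 UMIs and 50 CPM, through D-CAN only, so its call as at least 2-fold higher was fixed by the filter. Of 3765 genes so filtered, 6.35% were at least 2-fold higher and 2.02% lower. No member passed it between Pdgfrb-TK/GCV and Pdgfrb-TK/PBS, where 2.65% of 3542 genes were at least 2-fold higher and 1.67% lower and where the class II sum was 1.24 times as high (1.19 to 1.29).

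As a guide to free RNA of macrophages, Ctss (cathepsin S), Lyz2 and Tyrobp, myeloid genes chosen after their values were seen, were taken as percent of their macrophage level. In KPC tumor cells of D-CAN, Ctss stood at 0.144% (0.126 to 0.163), Lyz2 at 0.117% and Tyrobp at 0.252%. H2-Aa, H2-Ab1 and H2-Eb1 stood at 0.395%, 0.477% and 0.412%. Cd74 stood at 1.05% (1.02 to 1.07), Ciita at 2.76% (2.41 to 3.16) and H2-DMb1 at 6.89% (6.44 to 7.38), all above the guide genes. In WT/PBS, H2-Aa at 0.358% and Cd74 at 0.361% lay within the range of the guide genes. Lyz2 stood there at 0.228%, Ctss at 0.318% and Tyrobp at 0.399%. H2-DMb1 was at 0.683% and Ciita at 1.44% (0.589 to 3.07). In Pdgfrb-TK/PBS, H2-DMb1 at 1.18%, Ciita at 1.09%, H2-Aa at 0.792% and Cd74 at 0.737% stood above the guide genes, at 0.443% to 0.685%. The intervals of Ciita (0.736 to 1.59), H2-Aa (0.729 to 0.859) and Cd74 (0.699 to 0.777) overlapped that of Tyrobp (0.623 to 0.752). In Pdgfrb-TK/GCV the guide genes themselves were at 1.16% to 1.36%, the highest of the libraries, with Cd74 at 1.83%, Ciita at 1.45% and H2-DMb1 at 3.17%. H2-DMa stood at 1.93% to 3.75% in all 4 libraries, above Ctss in each. The part of free RNA, from macrophages, dendritic-marker cells or B cells, in these levels was not tested.

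**Figure D4:**
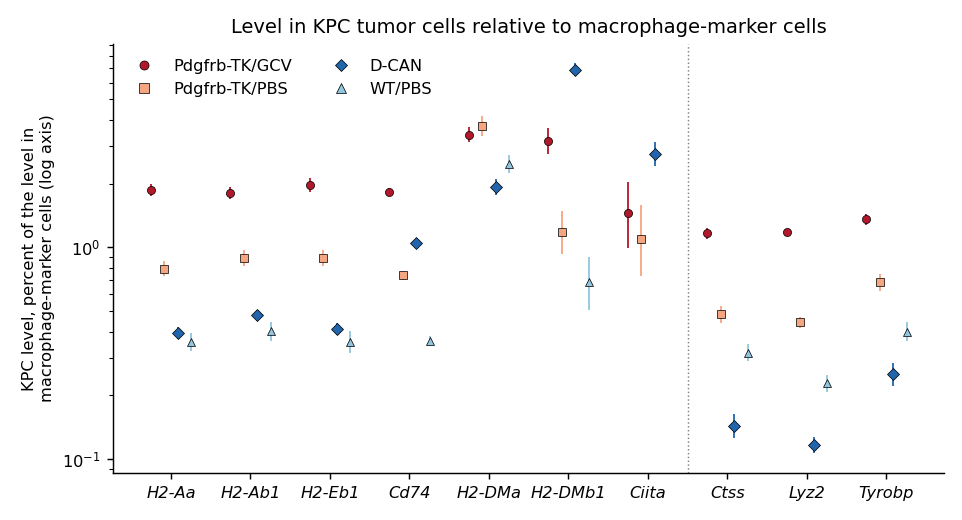
Level of 7 class II genes and, right of the dotted line, 3 myeloid guide genes in KPC tumor cells as percent of the level in macrophage-marker cells of the same library (y axis, log axis), with 95% intervals; H2-DMb2 and H2-Oa are left out for few UMIs. In D-CAN, H2-DMb1 at 6.89%, Ciita at 2.76% and Cd74 at 1.05% stand above the guide genes at 0.117% to 0.252%.

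Cd74 also took a larger part of the class II UMIs there. It made up 69.3% (68.4 to 70.1) of the UMIs of Cd74, H2-Aa, H2-Ab1 and H2-Eb1 in KPC tumor cells of D-CAN, against 45.5% to 52.0% in those of the other libraries and 47.9% to 52.7% in macrophages. Without cells that carried markers of another class or any Ctss, Lyz2 or Tyrobp UMI, the share of Cd74 was 70.3% in the 2002 cells left in D-CAN. In these cells Cd74 was at 78.6 CPM, H2-DMb1 at 17.0 CPM and Ciita at 3.68 CPM, against 5.72, 0.333 and 0.0667 CPM in the 4220 such cells of WT/PBS.

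Cd74 was seen in 41.7% of KPC tumor cells of D-CAN at a median depth of 24615 UMIs, and in 8.72% of those of WT/PBS at 12505 UMIs. After thinning to 2000 UMIs, with 184 and 851 shallower cells left out, the shares were 12.2% (10.9 to 13.5) and 1.90% (1.50 to 2.36). H2-DMb1 was seen in 3.12% and 0.0972% of the thinned cells, whereas Ctss, the background guide, was seen in 0.881% and 1.02%.

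The balance of H2-DMb1 and H2-DMa differed between macrophage-marker and fibroblast-marker cells. H2-DMb1 made up 26.7% to 37.1% of the UMIs of this pair in macrophages and 18.7% to 38.2% in dendritic-marker cells. In fibroblast-marker cells it made up 71.2% (62.1 to 79.2) for Pdgfrb-TK/GCV, 61.6% (49.5 to 72.8) for Pdgfrb-TK/PBS, 49.0% (43.5 to 54.4) for D-CAN and 55.4% (50.4 to 60.3) for WT/PBS. In KPC tumor cells its share was 67.9% (65.9 to 69.8) in D-CAN, against 9.15% to 26.5% elsewhere. The fibroblast and macrophage shares did not overlap within any library.

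**Figure D5:**
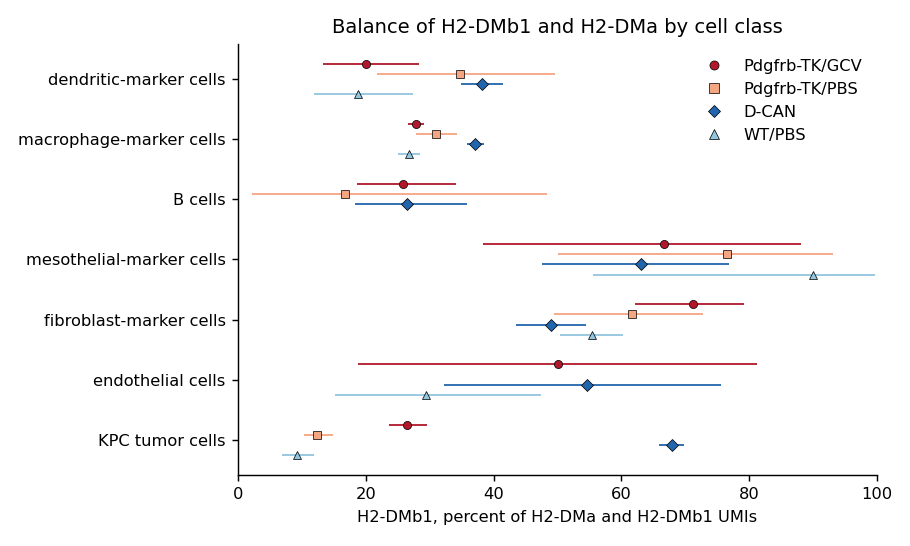
Share of H2-DMb1 in the summed UMIs of H2-DMa and H2-DMb1 (x axis, percent) by cell class (y axis), with 1 point per library and 95% Clopper-Pearson bars; pairs with under 10 UMIs are left out. The macrophage-marker cells lie at 26.7% to 37.1%, the fibroblast-marker cells at 49.0% to 71.2%, and the KPC tumor cells of D-CAN at 67.9%.

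In fibroblast-marker cells H2-Ab1 was above H2-Aa in each library except WT/PBS, where the I-A chains were near each other. H2-Ab1 was at 60.5 CPM and H2-Aa at 18.5 CPM in Pdgfrb-TK/GCV, at 34.5 and 16.9 CPM in Pdgfrb-TK/PBS, at 46.3 and 32.2 CPM in D-CAN and at 23.0 and 24.9 CPM in WT/PBS. H2-Ab1 made up 76.6% (70.8 to 81.7) of the pair in Pdgfrb-TK/GCV fibroblasts and 50.9% in macrophages of that library. Between Pdgfrb-TK/GCV and Pdgfrb-TK/PBS, H2-Ab1 was 1.75 times as high (1.36 to 2.27) and H2-DMb1 1.62 times (1.11 to 2.38), while Cd74 was 0.868 times as high (0.706 to 1.07). H2-Ab1 and Cd74 were the 2 members past the filter and neither reached 2-fold, as 3.07% of 3653 genes did upwards and 3.18% downwards. Without cells of a second class and cells with a guide gene UMI, 109 fibroblasts of Pdgfrb-TK/GCV and 339 of Pdgfrb-TK/PBS remained, in which H2-Ab1 was at 68.9 and 39.2 CPM and the sum of the members at 164 and 197 CPM.

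Between D-CAN and WT/PBS the class II sum of fibroblast-marker cells was 1.75 times as high (1.66 to 1.83). Cd74 was the member past the filter, at 1.74 times (1.62 to 1.87), and H2-Ab1 at 2.01 times (1.79 to 2.27) and H2-Eb1 at 2.09 times (1.83 to 2.39) stayed under its 50 CPM, while 9.82% of 3971 genes were at least 2-fold higher and 6.72% lower. Cells with markers of another class moved this ratio: 243 of 2028 fibroblast-marker cells of WT/PBS and 77 of 1258 of D-CAN carried markers of another class, and without them the sums were 44.3 and 132 CPM, a ratio of 2.97 (2.73 to 3.24). With the KPC level of each library subtracted, the ratio was 0.873. In ECs the ratio was 1.03 times (0.851 to 1.24) over all cells, and 6.88 times (5.07 to 9.44) without cells of a second class, from 158 against 23.0 CPM.

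Mesothelial-marker cells, the cells from which antigen-presenting CAFs are thought to arise, had the highest class II level of the stromal classes in 3 of the 4 libraries, at 373 CPM (327 to 423) in Pdgfrb-TK/GCV, 404 CPM (346 to 467) in Pdgfrb-TK/PBS and 2371 CPM (2244 to 2502) in D-CAN, against 68.4 CPM (47.1 to 96.1) in WT/PBS. They numbered 41, 44, 40 and 14 cells. In D-CAN, Cd74 was at 1331 CPM, H2-Ab1 at 406 CPM, H2-Eb1 at 343 CPM and H2-Aa at 198 CPM. The guide genes Ctss, Lyz2 and Tyrobp were at 1.80, 7.22 and 12.6 CPM there, which is 0.0904%, 0.145% and 0.992% of their macrophage level. Pdgfrb-TK/GCV and Pdgfrb-TK/PBS differed by less than the counting error, at a ratio of 0.924 (0.758 to 1.13), but this depended on the cells and on the PBS library. Without cells of a second class or with a guide gene UMI it was 0.300 (0.194 to 0.451), and against WT/PBS it was 5.45 (3.78 to 8.10). Lyz2 was at 152 CPM in the mesothelial-marker cells of Pdgfrb-TK/GCV and at 9.07 CPM in those of Pdgfrb-TK/PBS, and its part in the ratio was not tested. The ratio of D-CAN to WT/PBS was 34.7 (24.5 to 50.6), and against Pdgfrb-TK/PBS it was 5.87 (5.02 to 6.91). With 1 more marker required it was 8.57 (5.17 to 15.4).

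Genes that flank the class II route were counted by list. Of 10 genes of lysosomal processing, which cut antigen and Cd74, 0 were at least 2-fold higher in macrophages under either treatment. Of all filtered genes, 8.73% (D-CAN) and 4.60% (GCV) were. Ctsl (cathepsin L) was the 1 at least 2-fold lower in D-CAN, at 628 CPM against 1677 CPM, beside 4.60% of all filtered genes lower there. Ctss, which trims Cd74 in macrophages, was at 1997 CPM in D-CAN against 1607 CPM in WT/PBS. Of 10 transcription genes, such as Rfx5, Nfya and Spi1, 3 passed the filter in macrophages and 0 reached 2-fold in either direction under either treatment. Of all filtered genes, 8.73% were higher and 4.60% lower in D-CAN, and 4.60% higher and 1.84% lower under GCV. In KPC tumor cells of D-CAN and WT/PBS, 1 transcription gene passed, Creb1, through D-CAN only. It was at least 2-fold higher, at 58.0 CPM against 27.0 CPM, beside 6.35% of all filtered genes. Its level in WT/PBS lay under the 50 CPM of the filter, so the filter bears on this call. H2-Eb2 and H2-Ob, the other class II genes listed, were at most 23.1 and 62.4 CPM in dendritic-marker cells and at most 3.03 and 5.78 CPM in macrophages.

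Of the 10 genes of IFN-γ signaling reported here, 8 passed in D-CAN and WT/PBS macrophages, and 3 of them, Irf1, Gbp2 and Cxcl9, were at least 2-fold higher in D-CAN, beside the 8.73% of all filtered genes. Cxcl9, a T cell chemokine, was at 372 CPM in D-CAN, 12.7 CPM in WT/PBS and at most 0.949 CPM in both TK libraries, so that it passed only through D-CAN and its call was fixed by the filter. The receptor genes Ifngr1 and Ifngr2 were at 1.10 and 1.14 times the level of WT/PBS. In KPC tumor cells, 7 of the 10 passed and 2 were at least 2-fold higher in D-CAN, Gbp2 at 50.9 times (44.0 to 59.2) and Irf1 at 4.17 times (3.95 to 4.39), beside 6.35% of all filtered genes. Both passed through D-CAN only, from 1.93 and 18.4 CPM in WT/PBS, so these calls too were fixed by the filter. In fibroblast-marker cells 7 passed, with Cxcl9 higher at 6.81 times, from 13.5 CPM in WT/PBS and likewise fixed, and Cxcl10 lower at 0.482 times, beside 9.82% and 6.72% of all filtered genes. Under GCV, Irf1 was among the 6 passing genes in macrophages through Pdgfrb-TK/GCV only, so the filter bears on its call. It was the 1 at least 2-fold higher, at 2.58 times (1.96 to 3.45), beside 4.60% of all filtered genes. In KPC tumor cells 0 of 4 were, beside 2.65%, and in fibroblast-marker cells 0 of 4, beside 3.07%.

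Ifng itself was counted in 566 UMIs over all cells of D-CAN, 496 of them in its 567 T cells at 165 CPM (151 to 181). The other libraries held 3 to 16 Ifng UMIs in all, with 15 to 107 T cells each. Lag3, an inhibitory receptor that binds class II, was at 95.8 CPM (85.0 to 108) in T cells of D-CAN and at 2.39 CPM (0.0606 to 13.3) in those of Pdgfrb-TK/GCV, and Cd4 at 71.1 and 81.4 CPM. The T cells of the PBS libraries were too few to set beside these: Lag3 had 1 UMI in 15 cells of Pdgfrb-TK/PBS, 33.8 CPM (0.857 to 189), and 0 UMIs in 34 cells of WT/PBS, with an interval of up to 28.7 CPM. T cells held 1 of the 424 Lag3 UMIs of Pdgfrb-TK/GCV and 287 of the 649 of D-CAN. Over all cells Lag3 was at 3.32, 1.93, 5.01 and 1.46 CPM in library order. Whether the T cells of D-CAN bear on its class II level was not tested.

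Of the costimulation genes, 4 of 6 passed in D-CAN and WT/PBS macrophages. Pdcd1lg2 was the 1 at least 2-fold higher, at 2.32 times (1.95 to 2.77), beside 8.73% of all filtered genes. It passed through D-CAN only, so its call too was fixed by the filter. Cd80 was at 1.94 times (1.73 to 2.18), Cd86 at 1.30 times and Cd274 at 0.680 times. March1, the ligase that sends class II to degradation, was at 156 and 125 CPM, 1.25 times (1.15 to 1.36), and Cd83, which counters it, at 1.13 times. Under GCV, 0 of 3 costimulation genes and 0 of 2 turnover genes that passed reached 2-fold. Of all filtered genes, 4.60% were at least 2-fold higher there and 1.84% lower.

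Over 32 pairs of library and class with at least 50 cells, the mean log2 level of the 9 members was most closely followed by Pkib, at a Pearson correlation of 0.948. The next were Rnase6, Fgd2, Cd180, Ly86, Cd83, Kynu, Slc9a7, Cd72 and Gm6377, down to 0.858, among 14126 genes ranked. Cd83 is in the turnover list above, Cd72 and Cd180 are receptors of B cells, and Ly86 encodes the partner of Cd180. The members correlated with their own mean at 0.823 for H2-Oa to 0.986 for H2-Eb1. The pairs share libraries, so these values are a description.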

How the data were processed

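Tumor suspensions pooled by treatment gave 4 droplet libraries, 1 per condition, matched to conditions by the sample titles, since the protocol text of the labels describes another tissue. The deposited values are counts of UMIs per gene and cell, which the authors made with Cell Ranger and STAR 2.6 against mm10, per the labels; the file headers name Cell Ranger 7.0.0. The files of D-CAN and WT/PBS list 5 reporter features (GFP and Tdtomato) that those of the other libraries lack, and these were left out. Cells with at least 200 genes were gated with Python 3.11.15 (numpy 2.4.6, scipy 1.17.1, pandas 2.3.3; figures with matplotlib 3.10.9): a marker counted when its share of a cell's UMIs exceeded 0.5 times its share over all cells, and the class with the most markers, at least 3, was taken. Mesothelial-marker cells are fibroblast- or mesothelial-led cells with 3 mesothelial markers. Doublets were kept, and cells with a second class are given apart. The 9 members, the lists and the markers were chosen with earlier results of these data known. Counts were summed per class and library and scaled to CPM; log2 ratios have a pseudocount of 1 CPM. The genes named are the members, the genes of the 7 lists, markers, the 10 most similar genes (with at least 500 UMIs), and Lyz2, Tyrobp, Sparc and Arg1, which were chosen after their values were seen; 1 gene of the lists is not reported here and is left out of the counts. Ratios past 2-fold were counted where the pair of libraries held 100 UMIs or more of a gene and its larger level reached 50 CPM. The ratio and its interval were tested on simulated data, with independent Poisson counts and genes of at least 100 expected UMIs. Such data cannot show how the intervals do for small counts that cluster in few cells. Alternatives changed the cell filters (500 genes, 20% mitochondrial UMIs), the gate, the PBS library, the genes summed, the free RNA and the pseudocount (10 CPM).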

Additional observations from a re-analysis of the deposited data

Results flagged for a closer look

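In 3 classes the class II sum lay below PBS under GCV and above PBS under D-CAN: at 0.576 and 2.60 times the PBS level in macrophage-marker cells, 0.839 and 2.13 times in dendritic-marker cells, and 0.875 and 1.94 times in B cells. The GCV side lay above 1 against the PBS library of the other mice in dendritic-marker cells (1.35) and B cells (1.34), and at 1.07 in B cells without cells of a second class. The difference between the treatments was not tested, since each condition is 1 library.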

How the results depend on the processing

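No paired analysis was possible because each condition has 1 library. The ratios given here are of the class II sum. In macrophage-marker cells they kept their direction under all 11 alternatives, between 0.366 and 0.842 for GCV and between 2.51 and 3.42 for D-CAN. Single members did not all do so: against WT/PBS the GCV ratio of H2-DMa was 1.08 and that of H2-DMb1 1.15. Against the other model's PBS, the ratio was 2.64 in macrophages (D-CAN), 5.45 (GCV) and 5.87 (D-CAN) in mesothelial-marker cells, 2.56 (GCV) and 2.45 (D-CAN) in KPC tumor cells and 1.39 (GCV) and 4.54 (D-CAN) over all cells, and it crossed 1 under GCV in dendritic-marker cells (1.35), B cells (1.34) and ECs (0.697). Without Cd74 and H2-Aa it was 0.625 and 3.14 in macrophages (GCV, D-CAN), 16.9 in mesothelial-marker cells (D-CAN), 1.13 and 4.27 in KPC tumor cells and 3.43 over all cells (D-CAN). With 1 more marker required it was 0.600 and 2.62 in macrophages, 8.57 in mesothelial-marker cells (D-CAN) and 1.41 in KPC tumor cells (GCV). Without cells of a second class it was 0.509 in macrophages (GCV), 1.34 and 6.44 in KPC tumor cells and 1.07 in B cells (GCV), the last across 1. With the KPC level subtracted it was 59.8 in mesothelial-marker cells (D-CAN) and 0.873 in fibroblast-marker cells (D-CAN), across 1, and gave no value for ECs under either treatment. With at least 500 genes per cell it was 2.95 over all cells (D-CAN). Among the alternatives chosen after seeing the data, 1 left out cells with a second class or a UMI of Ctss, Lyz2 or Tyrobp. It gave 0.300 and 24.5 in mesothelial-marker cells and 1.77 and 8.22 in KPC tumor cells (GCV, D-CAN). In fibroblast-marker cells it gave 0.833 (GCV), across 1, and 3.57 (D-CAN). Macrophages with and without all C1q genes gave 0.624 and 0.366 (GCV) and 2.51 and 3.42 (D-CAN), and with and without Arg1 0.555 and 0.842 (GCV) and 2.56 and 2.55 (D-CAN). The cause of these shifts was not tested. The few cells limit the mesothelial, dendritic and B cell values, and 1 library per condition limits all.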

Other observations

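Rfxank and Nfya, which encode parts of the RFX and NF-Y complexes at class II promoters, were at 10.4 and 32.6 CPM in KPC tumor cells of D-CAN and at 3.77 and 12.8 CPM in those of WT/PBS, below the level needed to be counted. The checkpoint ligand Pdcd1lg2 was at 6.10 CPM in KPC tumor cells of Pdgfrb-TK/GCV and at 0.844 CPM in those of Pdgfrb-TK/PBS, a ratio of 7.22 (5.52 to 9.59). In dendritic-marker cells, Irf8, a transcription factor of type 1 dendritic cells, was at 737 CPM in D-CAN against 79.4 CPM in WT/PBS, 9.28 times (6.44 to 13.9), and Ctsl at 114 against 1061 CPM. Cells with markers of a second class were 12 of these 111 cells in D-CAN and 9 of 29 in WT/PBS, with Vim at 727 against 2133 CPM and Krt8 at 334 against 786 CPM, and their part in these values was not tested. In 14 NK cells of D-CAN, Ifng was at 331 CPM (214 to 488).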
